A study of Mus musculus with 9 samples.

Results

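Of the 16509 genes measured in MC38 cells, 53 were close to the detection limit in control cells and had a far higher mean after Cadict. In Pcdhga1 that mean rests on a single library. The 53 genes were chosen by their values: a mean normalized read count (the read count divided by 1 size factor per library) below 5 over the 3 Ctrl libraries and of at least 50 over the 3 Cadict libraries. Symbols beginning with Hspa, Dnaj or Hist were left out, which removed 1 gene, Hspa1a. MC38 is a mouse colon carcinoma line, and messenger RNA was sequenced in 9 libraries, 3 in each of 3 groups. Ctrl cells received the vehicle (DMSO by the sample labels, PBS by the study's text), Cu-Cys cells received copper together with cystine, and Cadict cells received a nanodrug assembled from copper and cystine that also carries glucose oxidase (GOx) and the EGFR-binding peptide GE11. All groups are the same cell line without a genetic change, and neither dose nor time of treatment is given for these libraries. Columns abbreviated CC were read as Cu-Cys by its initials, and those abbreviated CCGE as Cadict from its components. The study's text speaks of its replicates as biological, but does not say how the cultures behind these libraries were kept apart, so p-values measure the spread between these libraries.

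In any one cell line a large part of the genome is kept off, held in chromatin that transcription factors do not reach, and the genes that are off are mostly those that define other tissues. Stress can bring some of them into transcription: heat shock factors bind repeated GAA units, AP-1 (dimers of Fos and Jun proteins) binds a short palindrome, and ATF4 acts in the response to amino acid shortage. RNA can also run past the end of an active gene into a neighbour, so a gene's own start, its neighbours and its near-identical copies all bear on what a read count over it means. Grhl2, Grainyhead-like 2, leads the 53 genes. It is a transcription factor of epithelia that keeps junction and adhesion genes such as Cdh1 active.

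The stretches of promoter printed here belong to 4 of the more strongly expressed of the 53 genes and to Fgf21. Each shows a chosen kind of short stress-related element before the annotated start, and other kinds were not marked. They were taken from RefSeq on GRCm38.p6, 5′ to 3′ on the strand of the gene. The capitals mark the 2-unit heat shock element (GAANNTTC or TTCNNGAA) in Hspb1, the AP-1 site (TGANTCA) in Tex19.1, Sdcbp2 and Serpinb2, and the ATF4 element (TGATGNAA, here on the opposite strand) in Fgf21.
Hspb1, chr5:135887782-135887849 (+): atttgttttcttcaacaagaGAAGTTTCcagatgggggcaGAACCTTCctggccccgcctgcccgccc
Tex19.1, chr11:121146006-121146068 (+): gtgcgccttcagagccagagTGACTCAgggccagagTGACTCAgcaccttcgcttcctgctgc
Sdcbp2, chr2:151572559-151572605 (+): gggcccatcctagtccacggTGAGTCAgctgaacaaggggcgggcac
Serpinb2, chr1:107511309-107511355 (+): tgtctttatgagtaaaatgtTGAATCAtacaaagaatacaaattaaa
Fgf21, chr7:45615602-45615649 (−): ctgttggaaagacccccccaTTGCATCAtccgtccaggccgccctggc
Hspb1 and Tex19.1 each hold 2 such elements within the printed stretch. The promoter of Serpinb2 also holds a 2-unit heat shock element, outside the stretch printed. The promoters of Tex19.1 and Fgf21 also match the metal response element, and that of Tex19.1 the antioxidant element. How often the same letters occur in all promoters is given further on.

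The label "silent" holds closely but not strictly. In Ctrl cells 6 of the 53 genes had no count in any library (Plcl1, Mep1a, Nell2, Gml, Gml2 and Pcdhga1), and 37 had at most 3 counts in every library. The highest count of any of them in a Ctrl library was 12. The total count was 17905771 to 18293056 per library, and a count of 0 allows up to 3 counts, which correspond to a normalized count of 2.26 to 2.295 in Ctrl, 2.43 to 2.47 in Cu-Cys and 4.71 to 4.86 in Cadict libraries. These limits, like the intervals given with folds, cover counting error only. In bulk RNA, many cells with little of a transcript and few cells with much of it cannot be told apart.

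Together the 53 genes took 0.000566% ± 4.8e-05 of the counts of a library in Ctrl, 0.00109% ± 9.7e-05 with Cu-Cys and 0.0236% ± 0.00085 with Cadict (SD, n = 3 each). Their median level was 1.01 normalized counts in Ctrl, 1.37 in Cu-Cys and 75.0 in Cadict. In Cadict they ran from 50.9 (Gml2) to 860.1 (Grhl2), with 9 genes at 200 or more, 21 at 100 or more and 32 between 50 and 100. Grhl2 alone made up 12.7% of their summed level, the 5 highest genes 32.4% and the 10 highest 48.1%. The replicates of Cadict were close, with a median coefficient of variation of 12.5%, and it exceeded 30% in 4 genes (Pcdhga1, LOC118568284, Gm10354 and A3galt2). In 42 of the 53 genes every Cadict library reached 50.

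**Figure D1:**
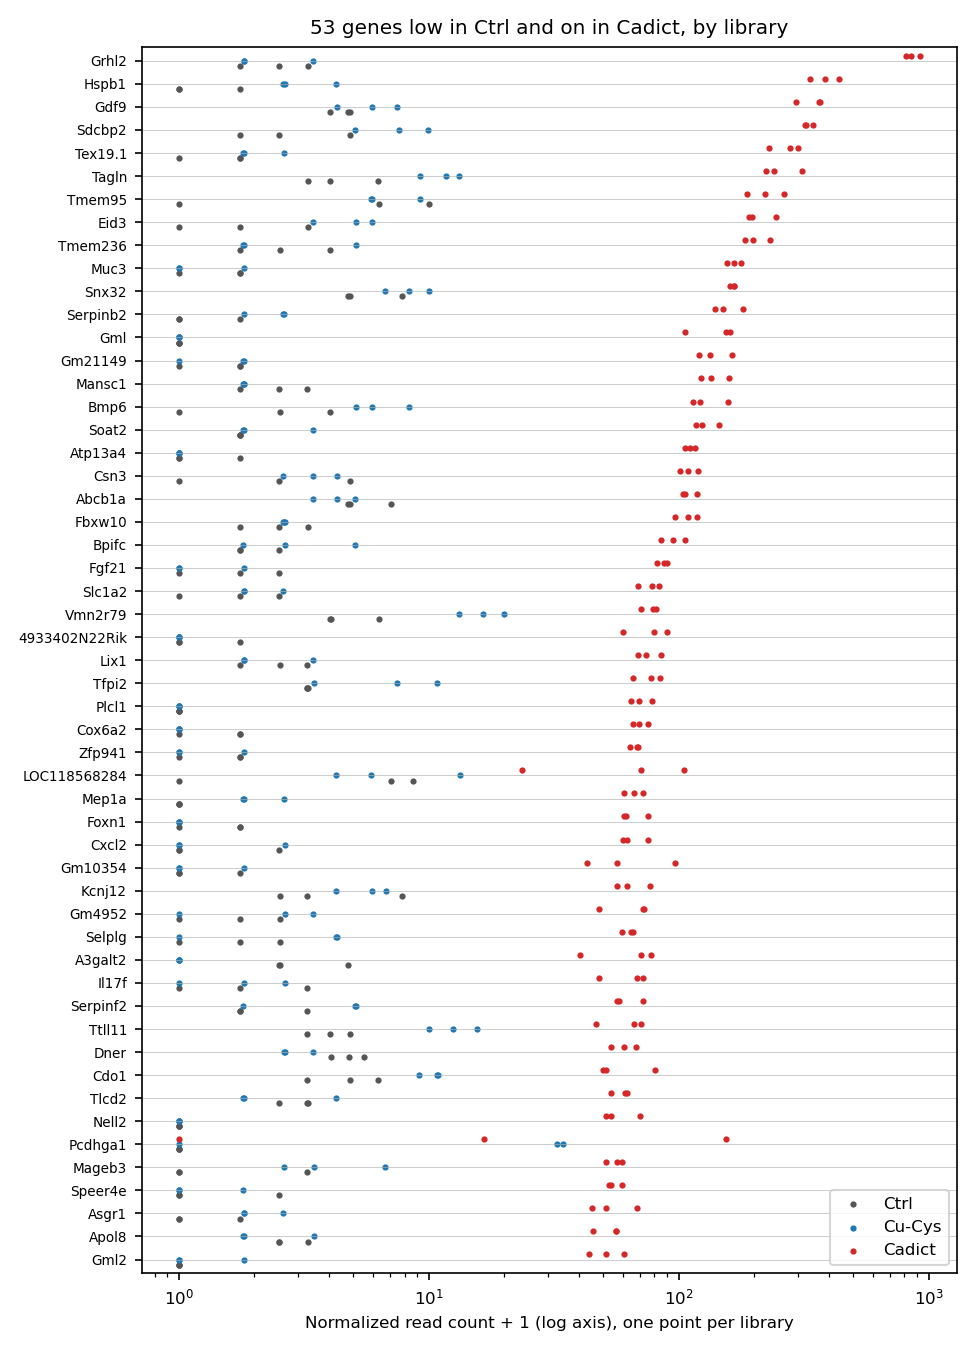
Normalized read count plus 1 (log axis) of each of the 53 genes in each of the 9 libraries, with 1 point per library, ordered by the Cadict mean. In 52 of the 53 genes all Cadict points lie to the right of all Ctrl and Cu-Cys points, and the exception is Pcdhga1.

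Genes this low in Ctrl rarely reached such levels. Of 4436 genes with a Ctrl mean below 5, Hspa1a included, 3723 stayed below 5 in Cadict, 352 lay between 5 and 10, 236 between 10 and 25, 71 between 25 and 50, 32 between 50 and 100 and 22 at 100 or more. The 53 genes are thus 1.19% of them and the upper end of a continuous distribution, with no gap at the cut-off. Just inside it in Cadict were Gml2 (50.9), Apol8 (51.5) and Asgr1 (53.7), and just outside were Gm17019 (49.4), Ifitm10 (48.9) and Shtn1 (48.7). On the Ctrl side, Snx32 (4.80), Tmem95 (4.78) and LOC118568284 (4.56) were just inside. Stmn4 (5.06 in Ctrl, 339 in Cadict), Tmem179 (5.31 and 182) and Pde8b (5.32 and 73.9) were just outside. In Cu-Cys none of the 4436 genes reached 50, and the highest had 39.5.

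**Figure D2:**
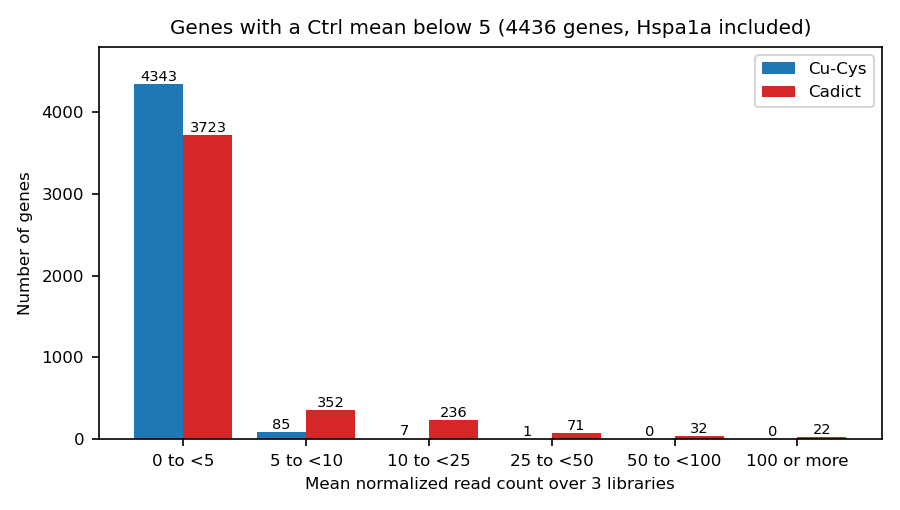
Number of genes (vertical axis) by mean normalized read count over the 3 libraries (horizontal axis) among the 4436 genes with a Ctrl mean below 5, for Cu-Cys (blue) and Cadict (red). In Cu-Cys 4343 genes stayed below 5 and 0 reached 50, and in Cadict 3723 stayed below 5 and 54 reached 50.

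Because the rule used both groups, Cadict against Ctrl is a description here. At the study's threshold (fold change of at least 2 and adjusted p of at most 0.001, edgeR quasi-likelihood test) 52 of the 53 genes were called higher, beside 20.7% of the 11949 genes tested, and nothing can be read from that count. Apart from Pcdhga1, each had enough counts in Cadict alone to enter the test, and some, such as Vmn2r79 and Ttll11, had enough in Cu-Cys as well. Pcdhga1 entered through Cu-Cys libraries (40.8 and 38.2 counts) together with a Cadict library (94.1 counts). The ratio of Cadict to Ctrl was taken from the counts summed over the 3 libraries of a group and divided by their summed size factors. For the 47 genes with a count in Ctrl it ran from 15.2 to 1524 with a median of 90.6, or 86.1 with the other 6 at their lower bounds. The median log2 fold change was 6.35 for the 53 genes and -0.13 for all genes tested. The size factors were 1.31 to 1.33 in Ctrl, 1.21 to 1.23 in Cu-Cys and 0.617 to 0.637 in Cadict, so equal counts weigh more in Cadict. With counts scaled by library totals, 20 genes met the same cut-offs, and all 20 were among the 53. That scaling moved the median log2 fold change of all genes in Cadict against Ctrl by -0.95, and that of the 53 by -0.92 to 5.43.

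Transcription regulators made up 4 of the genes, at 64.9 to 860.1 normalized counts in Cadict. Grhl2 stood at 1.51, 0.757 and 2.295 in the Ctrl libraries, at 0.824, 0.819 and 2.43 in Cu-Cys, and at 809.6, 849 and 922 in Cadict. The Cu-Cys libraries overlapped those of Ctrl, and the lowest Cadict library was far above both. The Cadict mean was 860.1 ± 57.0 (SD, n = 3), and the ratio of Cadict to Ctrl was 567 (95% interval of the counts 260 to 1547). Eid3, an inhibitor of histone acetylation that also belongs to the SMC5/6 complex, stood at 0.754, 0 and 2.295 in Ctrl, 4.12, 4.91 and 2.43 in Cu-Cys, and 190.9, 196 and 243 in Cadict. It is a gene of 1 exon that lies within Txnrd1 on the same strand. Txnrd1, thioredoxin reductase, had 3669 normalized counts in Ctrl, 6394 in Cu-Cys and 58131 in Cadict, and the part of its transcripts in the Eid3 count was not tested. Foxn1, the forkhead factor of thymic epithelium and hair follicles, had means of 0.506, 0 and 64.9 in Ctrl, Cu-Cys and Cadict. Zfp941, a zinc finger protein, had means of 0.504, 0.273 and 65.9.

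Secreted signals are encoded by 5 of the genes. Gdf9, the growth factor that oocytes send to the follicle cells around them, stood at 3.77, 3.03 and 3.83 in Ctrl, 3.30, 4.91 and 6.49 in Cu-Cys, and 367, 363 and 294 in Cadict. The Ctrl and Cu-Cys libraries overlapped, and the ratio of Cadict to Ctrl was 96.3 (95% interval 57.0 to 177). Bmp6, a bone morphogenetic protein that controls hepcidin, stood at 3.02, 0 and 1.53 in Ctrl, 4.12, 4.91 and 7.30 in Cu-Cys, and 121, 113 and 157 in Cadict. Here the Cu-Cys libraries all lay above those of Ctrl. Fgf21, a hormone of liver that is a known ATF4 target and carries the element printed above, had means of 0.758, 0.273 and 85.5 ± 4.12 in Ctrl, Cu-Cys and Cadict (SD, n = 3). Cxcl2, a neutrophil attractant, had means of 0.505, 0.550 and 64.9, and Il17f, a cytokine of T helper cells, had means of 1.01, 0.822 and 61.7.

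Of 6 protease inhibitors and other secreted proteins, Serpinb2, plasminogen activator inhibitor type 2, was the highest. It stood at 0, 0 and 0.765 in Ctrl, a single count in 3 libraries, at 0.824, 1.64 and 1.62 in Cu-Cys, and at 138, 149 and 181 in Cadict. Resting on 1 count, its ratio of 617 had a 95% interval of 109.9 to 24465. Csn3, the milk protein kappa-casein, stood at 0, 1.51 and 3.83 in Ctrl, 3.30, 2.46 and 1.62 in Cu-Cys, and 100.2, 118 and 108 in Cadict. The Cu-Cys values lay within the range of Ctrl. The Cadict means of the other 4 were 94.5 for Bpifc, 74.8 for the protease inhibitor Tfpi2, 61.2 for Serpinf2 (alpha-2-antiplasmin) and 57.3 for Nell2, a secreted neuronal protein that had no count in any Ctrl or Cu-Cys library.

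The 16 surface proteins, channels and transporters formed the largest group, at 50.9 to 223 normalized counts in Cadict. Tmem95, a sperm membrane protein needed for fertilization, stood at 9.05, 5.30 and 0 in Ctrl, 4.95, 8.19 and 4.87 in Cu-Cys, and 186, 220.3 and 262 in Cadict. Tmem236, a membrane protein, had means of 1.77, 1.92 and 204 in Ctrl, Cu-Cys and Cadict. The intestinal mucin Muc3 stood at 0.754, 0 and 0.765 in Ctrl, 0, 0.819 and 0 in Cu-Cys, and 177, 156 and 165 in Cadict. Gml, a GPI-anchored protein, was at 0 in all 6 Ctrl and Cu-Cys libraries and at 105, 159 and 154 in Cadict. Its level was at least 183-fold higher than in Ctrl when set against 3 counts over the group, and 147.5 is the lower limit of the exact interval, which also counts the error in Cadict. Mansc1 had 138 in Cadict and 1.52 in Ctrl, the transporter of the P5 ATPase family Atp13a4 had 110 ± 4.89 (SD, n = 3) and 0.252, and the drug efflux pump Abcb1a had 109 and 4.55. The remaining members of this group were the glutamate transporter Slc1a2 (75.9), the vomeronasal receptor Vmn2r79 (75.9), the brush border protease Mep1a (65.4), the potassium channel Kcnj12 (64.4), the P-selectin ligand Selplg (62.1), the Notch ligand Dner (59.5), the protocadherin Pcdhga1 (56.5), the asialoglycoprotein receptor Asgr1 (53.7) and Gml2 (50.9).

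Among 5 enzymes, Soat2, which esterifies cholesterol in liver and gut, stood at 0.754, 0.757 and 0.765 in Ctrl, 1 count in each library. It was at 0.824, 2.46 and 0.811 in Cu-Cys and at 122.5, 144 and 116 in Cadict. Cox6a2, the heart and muscle form of a cytochrome c oxidase subunit, had means of 0.504, 0 and 69.1 in Ctrl, Cu-Cys and Cadict. The glycosyltransferase A3galt2 had 2.27, 0 and 61.8, the tubulin-modifying enzyme Ttll11 3.04, 11.7 and 60.1, and cysteine dioxygenase (Cdo1), which starts the breakdown of cysteine, 3.79, 9.28 and 59.5.

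A group of 10 chaperone, cytoskeletal, adaptor and other proteins included the second highest gene. Hspb1, a small heat shock protein that holds unfolding proteins in solution, stood at 0.754, 0 and 0 in Ctrl, 1.65, 3.27 and 1.62 in Cu-Cys, and 383, 334 and 438 in Cadict. Its ratio of 1524 to Ctrl again rests on 1 count (95% interval 273 to 60293). Of its annotated 50-base stretches 48.8% occur in another annotated gene too, foremost in Hsp25-ps1, which was not analysed here. Sdcbp2, a PDZ-domain adaptor, stood at 1.51, 0.757 and 3.83 in Ctrl, 6.60, 4.09 and 8.93 in Cu-Cys, and 321, 343 and 320.4 in Cadict. Tex19.1, a germ cell protein that restrains retrotransposons, stood at 0.754, 0 and 0.765 in Ctrl, 0.824, 1.64 and 0.811 in Cu-Cys, and 229, 277 and 300.0 in Cadict. The actin-binding smooth muscle protein Tagln stood at 5.28, 3.03 and 2.295 in Ctrl, 10.7, 8.19 and 12.2 in Cu-Cys, and 240.2, 311 and 223 in Cadict. In Sdcbp2, Tex19.1 and Tagln each Cu-Cys library lay above each Ctrl library, in counts as well only for Tagln. Snx32, a sorting nexin, stood at 3.77, 6.82 and 3.83 in Ctrl, 9.07, 7.37 and 5.68 in Cu-Cys, and 159, 165 and 165 in Cadict. The Cadict means of the other 5 were 107 for Fbxw10, 75.0 for Lix1, 69.5 for Plcl1, 54.7 for Mageb3 and 51.5 for Apol8.

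Speer4e, a gene of a family transcribed in testis, and 3 look-alikes of it formed a group of near-identical genes. Their Cadict means were 138 for Gm21149, 75.5 for 4933402N22Rik, 64.5 for Gm10354 and 54.2 for Speer4e, and none exceeded 0.545 in Cu-Cys or 0.507 in Ctrl. Between 58.2% and 86.1% of their 50-base stretches also occur in another gene, so how reads were divided within the family is uncertain. Speer4d, with which Gm21149 and Speer4e share most, had 3.17 ± 3.14 normalized counts in Cadict, and Speer4c, with which Gm10354 shares most, had 26.5 ± 6.03 (SD, n = 3 each). The remaining 3 genes, LOC118568284, Gm4952 and Tlcd2, were left unclassified, with Cadict means of 65.4, 63.3 and 57.9.

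By the tissue in which they are best known, 5 genes belong to germ cells (Gdf9, Tex19.1, Tmem95, Mageb3 and Speer4e), 8 to gut and liver (Muc3, Soat2, Abcb1a, Fgf21, Mep1a, Serpinf2, Cdo1 and Asgr1) and 5 to nervous and sensory tissue (Slc1a2, Vmn2r79, Dner, Nell2 and Pcdhga1). Another 4 are of immune cells (Serpinb2, Cxcl2, Selplg and Il17f), 3 of muscle (Tagln, Cox6a2 and Kcnj12), 2 of epithelia (Grhl2 and Foxn1) and 2 of mammary gland and placenta (Csn3 and Tfpi2), and 24 were not assigned. No tissue made up most of the set. The medians in Cadict were 223 normalized counts for the germ cell genes, 75.4 for gut and liver, 59.5 for nervous and sensory tissue and 63.5 for immune cells. The look-alikes of Speer4e (Gm21149, 4933402N22Rik and Gm10354) were left not assigned. Their Cadict means of 138, 75.5 and 64.5 lie below the germ cell median, which would fall if they were counted with Speer4e. These assignments were written from general knowledge after the genes were known.

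Per length, the genes were ordinary in Cadict and not at the top of the transcriptome. Their FPKM (fragments scaled to transcript length and library total) had a median of 1.71, beside 1.85 for all 16509 genes, and ran from 0.3 (Slc1a2) to 23.2 ± 3.41 (Hspb1, SD, n = 3). At least 1 FPKM was reached by 36 genes and at least 5 by 12. The highest, Hspb1, stood at the percentile 82.9 of all genes, and the median gene at 49.0. The order by FPKM differs from that by counts: Hspb1 was followed by Sdcbp2 (10.1 ± 0.216) and Gdf9 (10.1 ± 1.04), which do not differ beyond their spread, then Tmem95 (9.15 ± 1.49) and Eid3 (7.48 ± 1.11). Grhl2, whose transcript is long, had 6.95 ± 0.515 (SD, n = 3 for each).

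**Figure D3:**
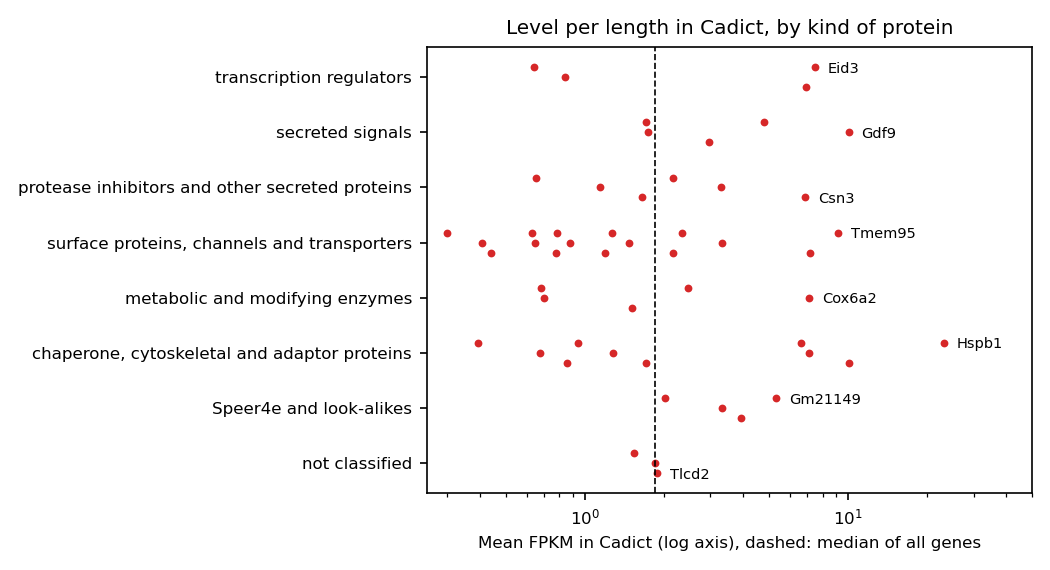
Mean FPKM in Cadict (log axis, 3 libraries) of the 53 genes, 1 point per gene, in rows by kind of protein with the highest gene of each row named. The dashed line is the median of all genes, 1.85, and each kind has genes on both sides of it except the Speer4e group, whose 4 genes lie at 2.01 to 5.32.

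In cells given Cu-Cys the levels lay far below those in Cadict cells. In Cu-Cys the 53 genes ran from 0 to 21.7 normalized counts: 42 were below 5, 11 lay between 5 and 50, and none reached 50. In 8 of them (Gml, Atp13a4, 4933402N22Rik, Plcl1, Cox6a2, Foxn1, A3galt2 and Nell2) no Cu-Cys library had a count, and 30 had at most 3 counts in each library. The median Cu-Cys level was 1.53% of the Cadict level. It was 10% or more in 5 genes: Vmn2r79, LOC118568284, Ttll11, Cdo1 and Pcdhga1.

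Against Ctrl, whose libraries also served to choose the genes, 1 of the 53 genes passed the study's threshold upward in Cu-Cys, where 0.167% of all tested genes did, and 0 passed it downward, where 1.47% did. The gene was Vmn2r79, which stood at 3.02, 5.30 and 3.06 in Ctrl, 19.0, 15.6 and 12.2 in Cu-Cys, and 77.9, 69.6 and 80.1 in Cadict. Its log2 fold change was 1.97 ± 0.35 (SE, adjusted p = 3.4e-04, edgeR quasi-likelihood test), and no Cu-Cys library overlapped those of Ctrl. The call was lost when Ctrl replicate 1, Ctrl replicate 3, Cu-Cys replicate 1 or Cu-Cys replicate 2 was left out (0 genes called), and 3 genes were called without Cadict replicate 2, with Ttll11 and Pcdhga1 added. DESeq2's Wald test called 0. At an unadjusted p under 0.05, edgeR had 11 higher and 1 lower, where 26.5% and 26.0% of all tested genes were.

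With an adjusted p of up to 0.05 and no fold limit, 9 genes were higher and 1 lower in Cu-Cys, where 22.6% and 22.4% of all tested genes were. Besides Vmn2r79 the higher ones were Ttll11 (log2 fold change 1.88 ± 0.42, adjusted p = 0.00209), Tagln (1.63 ± 0.47, adjusted p = 0.0109), Sdcbp2 (1.61 ± 0.52, adjusted p = 0.0211), Cdo1 (1.23 ± 0.44, adjusted p = 0.0334), Bmp6 (1.74 ± 0.67, adjusted p = 0.0456), Tfpi2 (1.39 ± 0.54, adjusted p = 0.0486), Mep1a and Pcdhga1 (all edgeR, with SE). Ttll11 stood at 3.02, 2.27 and 3.83 in Ctrl and at 11.5, 9.004 and 14.6 in Cu-Cys. Cdo1 stood at 5.28, 2.27 and 3.83 in Ctrl and at 9.89, 9.82 and 8.11 in Cu-Cys. In both genes the groups did not overlap. The lower gene was A3galt2, with 3.77, 1.51 and 1.53 in Ctrl and 0 in all 3 Cu-Cys libraries. For Grhl2 the log2 fold change was -0.17 ± 0.73 (SE, adjusted p = 0.884, edgeR), so its level in Cu-Cys could not be told from that in Ctrl at this depth.

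All 3 Cu-Cys libraries lay above all 3 Ctrl libraries in 14 of the 53 genes, where 35.3% of all tested genes did, and in 7 of them (Sdcbp2, Tex19.1, Eid3, Serpinb2, Soat2, Tfpi2 and Asgr1) the separation rests on the size factors, since the counts themselves touch or overlap. The median log2 fold change of Cu-Cys against Ctrl was 0.35 for the 53 genes and 0.01 for all tested genes. It was 0.46 for the 117 other tested genes with a Ctrl mean below 5, of which 1 was called higher and 9 were higher with an adjusted p of up to 0.05 (edgeR). Such low genes enter the test only through Cu-Cys or Cadict libraries, so neither median stands for low genes at large. The Cu-Cys mean was above the Ctrl mean in 62.3% and below it in 32.1% of the 53 genes, above in 65.0% and below in 26.5% of those 117, and above in 39.0% and below in 39.8% of all 4383 other genes with a Ctrl mean below 5.

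**Figure D4:**
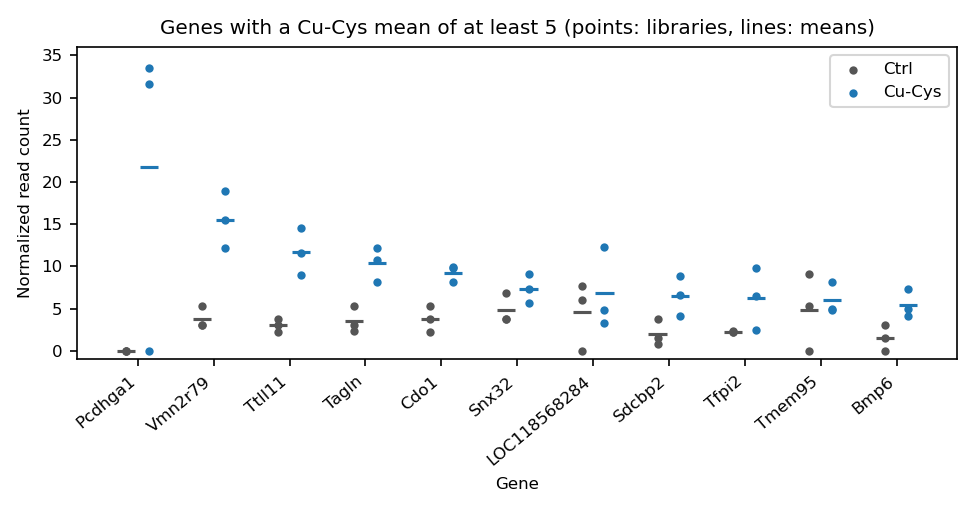
Normalized read count (vertical axis, linear) in the Ctrl (grey) and Cu-Cys (blue) libraries of the 11 genes with a Cu-Cys mean of at least 5, with points for libraries and lines for means. In 7 of them (Vmn2r79, Ttll11, Tagln, Cdo1, Sdcbp2, Tfpi2 and Bmp6) all Cu-Cys points lie above all Ctrl points, narrowly for Sdcbp2 and Tfpi2, and in Pcdhga1 1 of the 3 Cu-Cys libraries is at 0.

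Cadict against Cu-Cys uses the Cadict libraries by which the genes were chosen. At the study's threshold 52 of the 53 genes were higher in Cadict, where 18.6% of all tested genes were, with a median log2 fold change of 5.87 beside -0.10 for all. Grhl2 differed by 9.12 ± 0.18 on the log2 scale (SE, adjusted p = 1.3e-15, edgeR). The smallest differences among called genes included Vmn2r79 (2.22 ± 0.21, adjusted p = 7.6e-08, edgeR), Ttll11 (2.28 ± 0.25, adjusted p = 5.0e-07, edgeR) and Cdo1 (2.60 ± 0.28, adjusted p = 3.4e-07, edgeR). The gene not called was Pcdhga1 (1.28 ± 0.95, adjusted p = 0.219, edgeR).

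Pcdhga1 did not behave like the rest. It had no count in Ctrl, stood at 0, 33.6 and 31.6 in Cu-Cys and at 0, 154 and 15.7 in Cadict, so that 1 library decides its Cadict mean of 56.5 ± 84.7 (SD, n = 3). The genes of the protocadherin gamma cluster share their last exons, and 39.0% of its 50-base stretches occur in other genes. Pcdhgc3, with which it shares most, had 3555, 3890 and 2508 normalized counts in Ctrl, Cu-Cys and Cadict. LOC118568284 was also uneven, at 6.04, 0 and 7.65 in Ctrl, 12.4, 3.27 and 4.87 in Cu-Cys, and 69.99, 22.7 and 103.7 in Cadict.

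Near-identical copies touched a minority of the genes. Of the 52 genes found in GENCODE M21, 36 shared at most 5% of their stretches with another gene and 4, all of the Speer4e group, at least 50%. Gml and Gml2 share 18.7% and 14.4% of their stretches with each other, and both were at 0 in every Ctrl library, with 139 and 50.9 in Cadict. Abcb1a shares 17.6% with Abcb1b, which had 1291 ± 22.8, 1737 ± 39.4 and 3821 ± 378 normalized counts in Ctrl, Cu-Cys and Cadict (SD, n = 3 each), so how reads were divided between the pair is uncertain. Vmn2r79 shares 13.4% with Vmn2r78, which was at 0 in Ctrl and Cadict.

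Neighbouring genes were read from the same annotation. Of the 52 genes, 11 (21.2%) have another gene ending within 10 kb upstream on the same strand, beside 20.9% of all 15834 matched genes. In all 11 that neighbour was expressed in Ctrl (mean of at least 50), where 14.7% of all genes and 22.6% of the 106 other tested genes below the Ctrl cut-off have such a neighbour. In 5 of them (9.62%, beside 3.28% of all genes and 7.55% of those 106) the neighbour was itself called higher in Cadict. Tmem95 lies 0.2 kb downstream of Kctd11, which went from 393 to 1437 normalized counts (log2 fold change 1.78). Cdo1 lies 1.7 kb downstream of the autophagy gene Atg12, which went from 608 to 3730 (2.52). The others were Soat2, 1.0 kb from Igfbp6 (1.26), A3galt2, 2.5 kb from Phc2 (1.19), and Apol8, 3.6 kb from Myh9 (1.05). Grhl2, Hspb1, Sdcbp2, Tex19.1, Muc3 and Serpinb2 have no such neighbour. With library totals 1 of these 5 neighbours was called higher, beside 828 of all 11949 tested genes. Whether transcription from upstream contributes to any of these counts was not tested.

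Overlap with another gene was found on the same strand for Eid3, Fbxw10 (with Trim16) and Pcdhga1 (5.77%, beside 3.22% of all genes). On the opposite strand it was found for 5 genes (9.62%), a smaller share than in all genes (17.7%) or in the other genes below the Ctrl cut-off (12.4%). These 5 were Snx32 with the cofilin gene Cfl1 (12359 normalized counts in Ctrl, 43232 in Cadict), Bmp6 with Txndc5 (4927 and 8870), Mageb3 with Ctdspl2 (1458 and 1866), Tagln with Pcsk7 (259.5 and 134) and Nell2 with Tmem117 (25.3 and 19.7). The counting is not stated to use strand, so reads of overlapping genes could not be assigned with certainty. The genes were somewhat short, with a median of 5 exons and 2210 bases of transcript beside 7 exons and 3183 bases for all genes, 6 exons and 2504 bases for the other genes below the Ctrl cut-off and 5 exons and 2262 bases for those of them that were tested. Of the 52 genes 4 (Eid3, Cxcl2, Selplg and Mageb3) have 1 exon (7.69%, beside 6.68% of all genes and 10.1% of the other genes below the Ctrl cut-off). On chromosome 5 lie 10 of the 52 (19.2%, beside 6.28% of all genes), the 4 genes of the Speer4e group among them, and on chromosome 11 lie 9 (17.3%, beside 8.17%).

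RefSeq promoters (250 bases before to 50 after the start) were found for 36 of the 53 genes and searched on both strands. The 2-unit heat shock element was in the promoters of 8 (22.2%: Hspb1, Serpinb2, Fbxw10, Slc1a2, Tfpi2, Il17f, Tlcd2 and Mageb3), beside 14.7% of the 12889 genes with a promoter and 17.9% of the other genes below the Ctrl cut-off. The 3-unit form, in 0.566% of all and 0.683% of the other low genes, was in 0 of the 36. The AP-1 site was in 7 (19.4%: Sdcbp2, Tex19.1, Serpinb2, Atp13a4, Bpifc, Tfpi2 and Asgr1), beside 7.22% of all and 10% of the other low genes. The antioxidant element (TGACNNNGC) was in 6 (16.7%, beside 16.1% of all and 13.9% of the other low genes) and the metal response element (TGCACNC or TGCGCNC) in 6 (16.7%, beside 37.6% and 27.7%). The ATF4 element was in 1, Fgf21 (2.78%, beside 3.18% and 4.97%), and TATAAA in 6 (16.7%, beside 10.7% and 17.5%). These are matches of letters in a window of the annotated start, and a window without a match says nothing of the factor.

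The lists of related genes, written from general knowledge, held 2 of the 53: Grhl2 among epithelial genes and Hspb1 among heat shock genes. Of 28 epithelial genes 21 were in the table, and 17 of these had a Ctrl mean below 5, with Epcam, Cldn4, Cldn7, Ehf, Marveld2 and Cdx1 at 0 in every Ctrl library although the line comes from colon. Their summed level was 130.2 to 147 normalized counts in Ctrl, 102 to 109 in Cu-Cys and 1358 to 1445 in Cadict. Of the 4 that could be tested, Grhl2 was chosen for being higher in Cadict, and the other 3 were called higher than in Ctrl, beside 20.7% of all tested genes. These were the keratin Krt19 (18.4 in Ctrl, 201 in Cadict, log2 fold change 3.34 ± 0.18, adjusted p = 4.5e-11, edgeR, SE), Grhl1 (13.2 and 51.0) and Cdh1 (85.0 and 238). The sum in Cadict is thus mostly Grhl2, and 15 of the 21 genes had a Cadict mean below 5, of which 14 were below 5 in Ctrl too. None of the rest was tested, and their means went either way. Epcam had 0 in Ctrl and 2.12 ± 3.67 in Cadict, and Krt8 (2.02 ± 1.15 and 19.7 ± 7.24) and Vil1 (0.504 ± 0.436 and 5.82 ± 2.35) also had higher means in Cadict (SD, n = 3 each). Lower means in Cadict than in Ctrl were found for Lgals4 (9.38 and 3.20), Esrp2 (3.03 and 0.540) and Elf3 (3.03 and 0.530). Their Cadict means, like that of Epcam, lie below the normalized count that a count of 0 allows in a single Cadict library (4.71 to 4.86). For a mean of 3 libraries that limit is lower. In Cu-Cys 0 of the 4 tested epithelial genes passed the threshold with edgeR or DESeq2, and at an unadjusted p under 0.05 edgeR had 1 higher and 1 lower. With library totals 2 of the 4 were called higher in Cadict against Ctrl, beside 828 of all 11949 tested genes. That scaling moved the median log2 fold change of the 4 by -0.95. The lowest of the 4 before it were Grhl1 (1.85 ± 0.24) and Cdh1 (1.39 ± 0.10, SE), and the highest was Grhl2, which the rule chose.

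Of 20 heat shock genes outside the families left out by name, 19 were higher in Cadict, beside 20.7% of all tested genes. Their median log2 fold change was 2.90, beside -0.13 for all genes. Hspb1, chosen for being higher in Cadict, is among the 19. With library totals 16 of the 20 were called higher, beside 828 of all 11949 tested genes. In Cu-Cys their median was 0.30 and 0 passed the threshold with edgeR or DESeq2, while at an unadjusted p under 0.05 edgeR had 17 of the 20 higher and 1 lower, beside the same 26.5% and 26.0% of all tested genes. Hspb1 differed from its relatives in its starting level: Hspb8 had 824 ± 42.0 normalized counts in Ctrl and 16085 ± 138 in Cadict, and Cryab 1564 ± 61.2 and 21943 ± 575 (SD, n = 3 each). Hspa1a, left out by name, had 1.01 in Ctrl, 1.91 in Cu-Cys and 25081 in Cadict, above each of the 53. Among immediate early genes, which include the AP-1 subunits, 16 of 19 tested were higher and 2 lower in Cadict (median 2.70). With library totals 13 were higher and 2 lower. Of the metal response genes 9 of 11 were higher and 1 lower in Cadict (median 3.50), and 7 were higher and 1 lower with library totals. The share of all tested genes called higher is the same 20.7% for these 2 lists, and 3235 of the 11949 were lower. With library totals 828 of all tested genes were higher and 6148 lower. In Cu-Cys 4 of the 11 metal response genes were higher (Mt1, Mt2, Slc30a1 and Hmox1), where 0.167% of all tested genes were.

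Lists for other tissues gave few genes to test. For germ cells 13 of 20 genes were in the table, with a sum of 8.33 to 9.94 in Ctrl and 75.4 to 89.1 in Cadict, and the 1 tested, Piwil2, was higher (7.09 and 61.1). For muscle 3 of 4 tested were higher (2 with library totals) and 1 lower. For neurons 1 of 4 tested was lower (4 of 4 with library totals). Of all 11949 tested genes 2472 were higher and 3235 lower in Cadict, and 828 and 6148 with library totals. Of 12 liver genes 0 could be tested (summed level 12.8 to 15.9 in Ctrl, 17.5 to 36.1 in Cadict). Both Piwil2 and the muscle gene Ttn (4.29 in Ctrl, 23.3 in Cadict) were low in Ctrl. The filter on low counts may have kept them through their Cadict values, so little can be read from their calls. For blood and immune cells 12 of 17 genes were in the table, with sums of 63.5 to 80.0 in Ctrl, 51.1 to 60.2 in Cu-Cys and 305 to 366 in Cadict. The 1 tested, Cd68, was higher (52.9 ± 1.27 in Ctrl, 318 ± 26.0 in Cadict) and makes up most of that sum, while Cd3g was at 0 in every Ctrl and Cadict library. Of 9 tested fibroblast and endothelial genes 2 were higher (Kdr and Vwf, which passed the filter on low counts only through their Cadict values) and 4 lower in Cadict, and the 12 genes of that list summed to 18320 to 19459 in Ctrl, 9729 to 9986 in Cu-Cys and 3856 to 4242 in Cadict. The part of such markers in the levels of the 53 genes was not tested.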

How the data were processed

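The authors deposited 1 table of 16509 genes with expected counts, FPKM, TPM and a signal value for each library. The deposited signal was found to be the expected count, rounded up to a whole number, divided by 1 size factor per library (100% of values). Expected counts are estimates that divide shared reads between genes. The authors' processing notes name HISAT2 2.1.0, Bowtie2 2.3.4.3 and RSEM 1.3.1 with the builds GRCm39 and GRCh38.p13, without their roles. The deposited TPM and the columns of group averages were not used here. The deposited FPKM gave levels per length. The study's text names TRIzol and an Illumina instrument, the labels a column kit and DNA nanoballs.

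Members, gene lists, kinds and motifs were chosen with earlier results of these data known. The 53 genes were chosen on the deposited signal. Expected counts were rounded and tested in R 4.3.3 with edgeR 4.0.16 (filterByExpr by group, TMM, quasi-likelihood test, 1 fit of 9 libraries), with p-values adjusted by Benjamini-Hochberg over 11949 genes and a call at an adjusted p up to 0.001 with a fold of 2 or more. Named by rule were Grhl2, the 20 genes highest in Cadict, the 8 highest in Cu-Cys, those called in Cu-Cys, 3 on each side of each cut-off, and members of the lists. The other genes were named after their values were seen. Intervals of ratios are exact 95% intervals of the counts. Neighbours and copies came from GENCODE M21 on GRCm38, matched by symbol, and promoters from RefSeq on GRCm38.p6, a build other than that of the counts. The fit was tested on simulated data. Alternatives used DESeq2 1.42.0 and limma 3.58.1.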

Additional observations from a re-analysis of the deposited data

How the results depend on the processing

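The number of genes that met the rule was 53. It was 88 with a Ctrl mean below 10, 124 with a Cadict mean of at least 25, 21 with at least 100 and 20 with library totals in place of the size factors, and 52 to 58 when a Ctrl or Cadict library was left out. The number called in Cu-Cys against Ctrl, 1, became 0 with DESeq2's Wald test and with limma on log2 FPKM plus 1, 10 at an adjusted p of at most 0.05 without a fold limit, and 0 to 3 when a library was left out. With the replicate number as a block it was 2, Pcdhga1 being added. The block moved no other count by over 1.5 times. Same-numbered libraries had residual correlations of -0.192 to 0.158 over 8754 genes, and 4 of 9 libraries correlated best with their own number. With 3 libraries per group these values cannot settle whether the numbers mark pairs. Those called in Cadict against Cu-Cys, 52, became 32 with limma on log2 FPKM plus 1, whose pseudocount weighs on low genes, and stayed at 52 when any library was left out. Over all genes the calls in Cu-Cys against Ctrl, 196, became 71 with limma on log2 FPKM plus 1, and 143 to 229 when a library was left out. At an adjusted p of at most 0.05 without a fold limit, 10484 genes passed in Cadict against Ctrl (5707 at the study's threshold), 5381 in Cu-Cys against Ctrl and 10263 in Cadict against Cu-Cys (5041). When a library was left out, 5592 to 5742 and 4932 to 5058 genes were called in the comparisons with Cadict. With library totals the calls in Cadict against Ctrl divided into 828 higher and 6148 lower in place of 2472 and 3235, and against Cu-Cys into 688 and 5705 in place of 2225 and 2816. The cause of these moves was not tested. The median Cu-Cys level of the 53 genes, 1.37, stayed between 1.23 and 1.67 under each alternative run. The log2 fold change of Vmn2r79 in Cu-Cys kept its sign under each of 16 alternatives (0.39 to 2.28, adjusted p = 1.0e-04 to 0.00307). At these depths a count of 0 to 3 per library is the limit for most of the 53 genes in Ctrl and Cu-Cys.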
